A study of Rattus norvegicus with 16 samples.

Results

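Col1a1 (ENSRNOG00000003897), Col1a2 (ENSRNOG00000011292), Col3a1 (ENSRNOG00000003357), Fn1 (ENSRNOG00000014288) and Dcn (ENSRNOG00000004554) are matrix genes. For the 3 collagen genes and Dcn, fibroblasts of the meninges and of vessel walls are the usual source in spinal cord. The 5 genes were chosen by identifier from the 30560 rat genes in the deposited count table, and all 5 passed the filter on low counts. The choice was made with earlier results of these data known, and it singled out WT sham replicate 2, WT SNI replicate 3 and KO SNI replicate 1 as high in these genes. Those libraries are called the 3 high libraries here, and their height in these genes is given as a description.

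The libraries came from the dorsal horn of the lumbar spinal cord, which receives sensory input from the hind limb, 28 days after surgery. The rats were wild type (WT) or lacked LPA4, a G-protein-coupled receptor that binds lysophosphatidic acid (KO). Surgery was either sham or spared nerve injury (SNI), in which some branches of the sciatic nerve are cut and neuropathic pain follows. Each genotype had 4 libraries per operation, which made 4 groups, and the labels do not give strain, sex, age or how the knockout was made. The titles of the 4 KO sham samples read "WT" where the others name the operation. They were taken as KO sham from the column headers and from the series design, which names only sham and SNI. Whether the libraries of a group came from separate rats is not in the labels, so the p-values here rest on a spread among libraries that may be technical.

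Type I collagen, built from Col1a1 and Col1a2 chains, and type III collagen, built from Col3a1 chains, form the fibrils of connective tissue. Decorin, the product of Dcn, is a small proteoglycan that binds these fibrils and limits their thickness. Fibronectin, the product of Fn1, is a cell-adhesion glycoprotein that links collagen to integrins at the cell surface. In the healthy central nervous system fibrillar collagen is largely restricted to the meninges, the nerve roots and the sleeves around larger vessels, whereas fibronectin is also made by endothelium.

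Of the 5 genes, the RefSeq promoter table held an entry only for Col1a2. It is shown because the level of this gene followed that of Col1a1 across libraries. The stretch is chr4:33518307-33518416 of build GRCr8, plus strand, 250 to 141 bases before the annotated start. Capitals mark matches to CCAAT, here on the minus strand, and to TATAAA, on the plus strand, the only motifs searched, each on both strands. The marked matches do not overlap.

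Col1a2: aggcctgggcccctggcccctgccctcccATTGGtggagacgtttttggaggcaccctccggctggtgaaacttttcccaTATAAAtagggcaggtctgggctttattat

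Of the 33469 promoters in the table, 15.9% held CCAAT and 5.86% held TATAAA in the same stretch. A match is a match of letters and not a shown binding site.

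All values below are CPM (counts scaled to a common library total) after scaling of library sizes by the TMM method, and n is 4 per group. Levels are compared between libraries and not between genes, because transcript lengths were not used. The 5 genes together made up 87.97 to 156.5 CPM of the unscaled library total in 13 libraries. The 3 high libraries had 539.3 in WT sham replicate 2 (95% exact binomial interval 527.9 to 550.8), 424.8 in WT SNI replicate 3 (417.0 to 432.7) and 773.5 in KO SNI replicate 1 (763.3 to 783.9). These intervals cover counting error only. Of all 16, WT sham replicate 2 had the lowest total (15790243 counts). KO SNI replicate 1 had the highest (28090152) and WT SNI replicate 3 the next highest (26583679). The TMM factor was lowest in WT sham replicate 2 (0.9168) and highest in WT SNI replicate 3 (1.038). Whether the level of these genes goes with the library total was not tested. The knockout check, the count of the targeted gene, is not given here because the files do not pair identifiers with names. In bulk tissue, more cells of a type and more RNA per cell cannot be told apart.

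Col1a1, the larger contributor to type I collagen chains, had 16.5, 141, 12.7 and 9.69 CPM in replicates 1 to 4 of WT sham. The WT SNI libraries had 14, 12, 98.9 and 13.2 CPM. In KO sham it had 25.2, 12.4, 10.6 and 16.1 CPM, and in KO SNI 177, 13.3, 13 and 13.4 CPM. One library in each of 3 groups lay far above the rest, and KO sham had none of this kind. Outside the 3 high libraries the 13 values ran from 9.69 to 25.2 CPM, with a median of 13.2.

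Col1a2, the partner chain, followed the same libraries. The WT libraries had 14.8, 122, 11.9 and 9.80 CPM after sham and 15.2, 11.1, 73.4 and 12 CPM after SNI. The KO values were 17.8, 12.8, 11.6 and 16.5 CPM after sham and 159, 13.4, 11.3 and 13.6 CPM after SNI. The ratio of Col1a1 to Col1a2 counts was 1.15, 1.35 and 1.11 in WT sham replicate 2, WT SNI replicate 3 and KO SNI replicate 1. It was 0.91 to 1.42 in the other 13, with a median of 0.997, and the highest of these was KO sham replicate 1. The ratios of the 3 high libraries thus lay within that range and above its median.

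Col3a1, the type III chain, had the widest range of the 5 genes, 29.2-fold from the lowest to the highest library. Its WT values were 10.7, 113, 8.03 and 6.96 CPM after sham and 8.09, 8.05, 114 and 8.04 CPM after SNI. In KO they were 13.8, 5.92, 6.60 and 7.62 CPM after sham and 173, 9.46, 6.84 and 9.15 CPM after SNI. Without the 3 high libraries its range was 2.33-fold.

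Dcn, which encodes decorin, had 12.6, 124, 11.5 and 9.10 CPM in WT after sham and 9.36, 8.61, 33.6 and 9.79 CPM after SNI. In KO it had 14, 9.97, 11.2 and 10.8 CPM after sham and 127, 10.4, 8.37 and 10.2 CPM after SNI. The same 3 libraries were highest, but WT SNI replicate 3 was much nearer to the others than for the collagens.

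Fn1 did not share this pattern. In WT it had 99.3, 88.4, 58.1 and 74.4 CPM after sham and 62.7, 64.5, 90.0 and 68.3 CPM after SNI. The KO values were 80.5, 47.2, 66.0 and 62.8 CPM after sham and 124, 52.9, 67.8 and 76.9 CPM after SNI. KO SNI replicate 1 was again the highest of all, while WT sham replicate 2 lay below WT sham replicate 1, and the whole range was 2.62-fold.

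**Figure D1:**
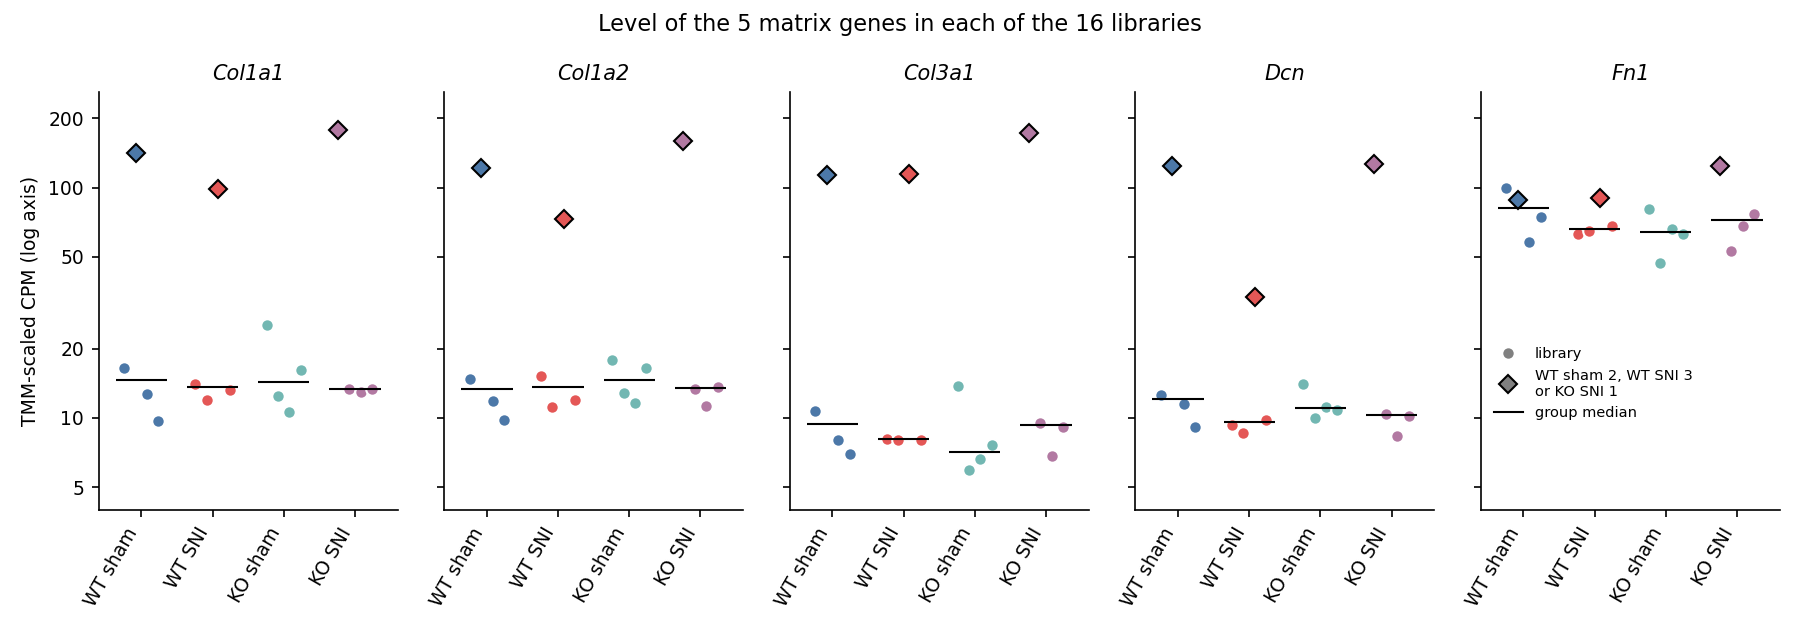
Level of Col1a1, Col1a2, Col3a1, Dcn and Fn1 in each library, as TMM-scaled CPM on a log axis, by group. Points are libraries, diamonds are the 3 high libraries and lines are group medians. For the collagens and Dcn the 3 diamonds, at 33.6 to 177 CPM, stand above all 13 other libraries, which reach at most 25.2 CPM. For Fn1 WT sham replicate 2, at 88.4 CPM, lies below a library of its own group at 99.3 CPM.

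The 3 high libraries did not hold the 5 genes in 1 common mixture. In WT sham replicate 2, Col1a1, Col1a2, Col3a1 and Dcn were 10.6, 9.54, 14.1 and 12.1 times the median of the 13 other libraries, and Fn1 was 1.34 times it. In KO SNI replicate 1 the same order of genes gave 13.4, 12.4, 21.5, 12.5 and, for Fn1, 1.88. In WT SNI replicate 3 Col3a1 was again at 14.1, but Col1a1 was at 7.47, Col1a2 at 5.72, Dcn at 3.29 and Fn1 at 1.36. WT SNI replicate 3 was thus equal to WT sham replicate 2 in Col3a1 and well below it in Dcn.

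Ratios within a library show the same unequal mixture. The ratio of Col3a1 to Dcn counts was 3.38 in WT SNI replicate 3, against 0.916 in WT sham replicate 2, 1.36 in KO SNI replicate 1 and 0.589 to 0.985 in the other 13. The ratio of Col1a1 to Col3a1, 1.39 to 2.12 in the 13, was lower in each of the 3 high libraries, at 1.24, 0.87 and 1.02 in the order WT sham, WT SNI and KO SNI. The ratio of Fn1 to Dcn was 4.74 to 8.18 in the 13 and 0.716, 2.68 and 0.972 in the 3. Each of these ratios compares 1 pair of genes between libraries, so that gene length cancels.

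Few other genes stood so far out in these libraries. Among 10426 genes with an average log2 CPM of at least 3, those over 4-fold above the median of the 13 were 44 in WT sham replicate 2 (0.422%), 13 in WT SNI replicate 3 (0.125%) and 24 in KO SNI replicate 1 (0.23%). The 5 genes gave 4, 3 and 4 of these. Only 10 of the 10426 genes (0.0959%) passed 4-fold in all 3 libraries, and Col1a1, Col1a2 and Col3a1 were 3 of the 10. By fold, Col3a1 ranked 5 in WT sham replicate 2, 5 in WT SNI replicate 3 and 4 in KO SNI replicate 1, whereas Fn1 ranked 1228, 207 and 143. These libraries were picked for these genes, so the shares are a description.

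**Figure D2:**
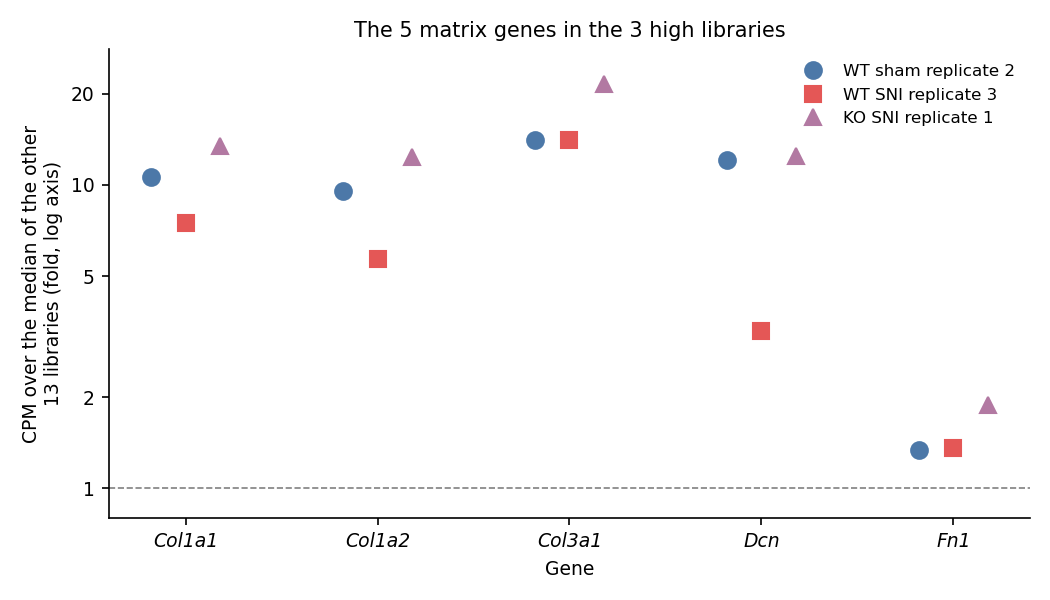
Fold of each of the 5 genes in WT sham replicate 2, WT SNI replicate 3 and KO SNI replicate 1 over the median CPM of the other 13 libraries, on a log axis, with a dashed line at 1. Col3a1 is at 14.1 or more in all 3 libraries, Dcn is at 3.29 in WT SNI replicate 3 against 12.1 and 12.5 in the others, and Fn1 is below 2 in all 3.

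The comparison of SNI with sham asks how the injury changed these genes in each genotype. In WT rats none of the 5 genes was called, that is, none had an edgeR adjusted p under 0.05 over all 15237 genes tested, where 0.0788% of genes were called. At an unadjusted p under 0.05 there were 0 of the 5 and 732 of all genes, and limma voom called 0 of the 5. Col1a1 averaged 44.9 ± 63.9 CPM after sham and 34.5 ± 42.9 CPM after SNI (SD, 4 libraries each). Its log2 fold change was -0.35 with a standard error (SE) of 1.02 (edgeR adjusted p = 0.998). Dcn averaged 39.2 ± 56.2 and 15.3 ± 12.2 CPM, and its log2 fold change was -1.32 with an SE of 0.96 (edgeR adjusted p = 0.998). In each group an SD near or above the mean came from 1 high library. The values of WT sham and WT SNI overlapped for all 5 genes, where 3.14% of all genes did not overlap.

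Single libraries set the direction. Without WT sham replicate 2 the log2 fold change of Col3a1 in WT went from 0.03 to 2.02, and without WT SNI replicate 3 it was -2.08. Those of Col1a1 were 1.42 and -1.76, and those of Col1a2 were 1.21 and -1.62. For Dcn they were 0.49 and -2.06. Fn1, with 80.0 ± 17.8 CPM after sham and 71.4 ± 12.6 CPM after SNI, stayed at -0.11 and -0.30.

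In KO rats the fitted fold changes were larger and again none of the 5 genes was called by edgeR (0.105% of all genes were called) or by limma voom. At an unadjusted p under 0.05 there were 0 of the 5 and 743 of all genes. Col3a1 averaged 8.48 ± 3.61 CPM after sham and 49.7 ± 82.3 CPM after SNI (SD, 4 libraries each), and its log2 fold change was 2.55 with an SE of 1.27 (edgeR adjusted p = 0.995). Col1a1, Col1a2 and Dcn had log2 fold changes of 1.75, 1.76 and 1.77 and Fn1 had 0.32. These values rested on KO SNI replicate 1. Without it they were -0.29, -0.20 and -0.25 for Col1a1, Col1a2 and Dcn, -0.01 for Col3a1 and 0.04 for Fn1. The KO sham and KO SNI values of all 5 genes overlapped, where 3.64% of all genes did not.

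The comparison of genotypes asks what the loss of LPA4 changed. After sham, none of the 5 genes was called (0.0131% of all genes were), 592 genes and 0 of the 5 had an unadjusted p under 0.05, and limma voom called 0 of the 5. Col3a1 had a log2 fold change of -2.0 in KO against WT (SE 1.27), Dcn of -1.75 (SE 0.97), Col1a1 of -1.46 (SE 1.06) and Col1a2 of -1.42 (SE 0.99), all at an edgeR adjusted p of 0.878. WT sham held a high library and KO sham did not. Without WT sham replicate 2 these were -0.02, 0.06, 0.30 and 0.26. The groups of all 5 genes overlapped, where 2.0% of all genes did not.

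After SNI both genotypes held a high library, and the fold changes of KO against WT were 0.65 for Col1a1, 0.82 for Col1a2, 0.52 for Col3a1, 0.17 for Fn1 and 1.34 for Dcn on the log2 scale. None of the 5 was called (0.0131% of all genes were), 188 genes and 0 of the 5 had an unadjusted p under 0.05, and limma voom called 0 of the 5. All 5 changed sign without KO SNI replicate 1, to -1.40, -1.14, -2.03, -0.12 and -0.68 in that order. Without WT SNI replicate 3 they were 2.06, 1.96, 2.63, 0.30 and 2.08. For each gene the groups overlapped, where 1.19% of all genes did not. DESeq2 gave no p-value for Col1a1, Col1a2, Col3a1 and Dcn, as for 66 of 15237 genes.

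With the 3 high libraries left out, KO sham kept its 4 libraries and each of the other groups had 3, and the 4 groups came together. Col1a1 was then 13 ± 3.43 CPM after sham and 13.1 ± 1.05 after SNI in WT, and 16.1 ± 6.52 and 13.2 ± 0.221 CPM in KO (SD). Col3a1 was 8.58 ± 1.95, 8.06 ± 0.0255, 8.48 ± 3.61 and 8.49 ± 1.43 CPM in the same order. The means of Col1a2 ran from 12.2 to 14.7 CPM, those of Dcn from 9.25 to 11.5 and those of Fn1 from 64.1 to 77.3. For Col1a1, Col1a2 and Dcn, KO sham had the highest of the 4 means.

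The precision rose several-fold without these libraries. The standard error of Col1a1 in the WT comparison fell from 1.02 to 0.26 and that of Dcn from 0.96 to 0.15. For Col1a1 the SNI effect in WT was then 0.00 (95% confidence interval -0.55 to 0.55) and in KO -0.29 (-0.80 to 0.23). For Col3a1 it was -0.10 (-0.66 to 0.47) in WT and -0.01 (-0.53 to 0.52) in KO. The interval of Col3a1 was also taken as a fold of SNI over sham. Over all 16 libraries it was 0.178 to 5.82 in WT and 0.896 to 38.0 in KO. Without the 3 high libraries it was 0.634 to 1.38 in WT and 0.694 to 1.43 in KO. Falls and rises within either pair of bounds were not excluded. None of the 5 genes was called in these fits, where 0.158% of genes were called for SNI in WT, 0.0263% for SNI in KO, 0.00657% for genotype after sham and 0.0131% for genotype after SNI. None of the 5 had an unadjusted p under 0.05 in these 4 comparisons either, where edgeR gave 417 to 1235 genes. Because the 3 libraries were picked for their level of these genes, the likeness of the remaining groups is no independent evidence. The smaller standard errors and narrower intervals follow from the same choice.

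**Figure D3:**
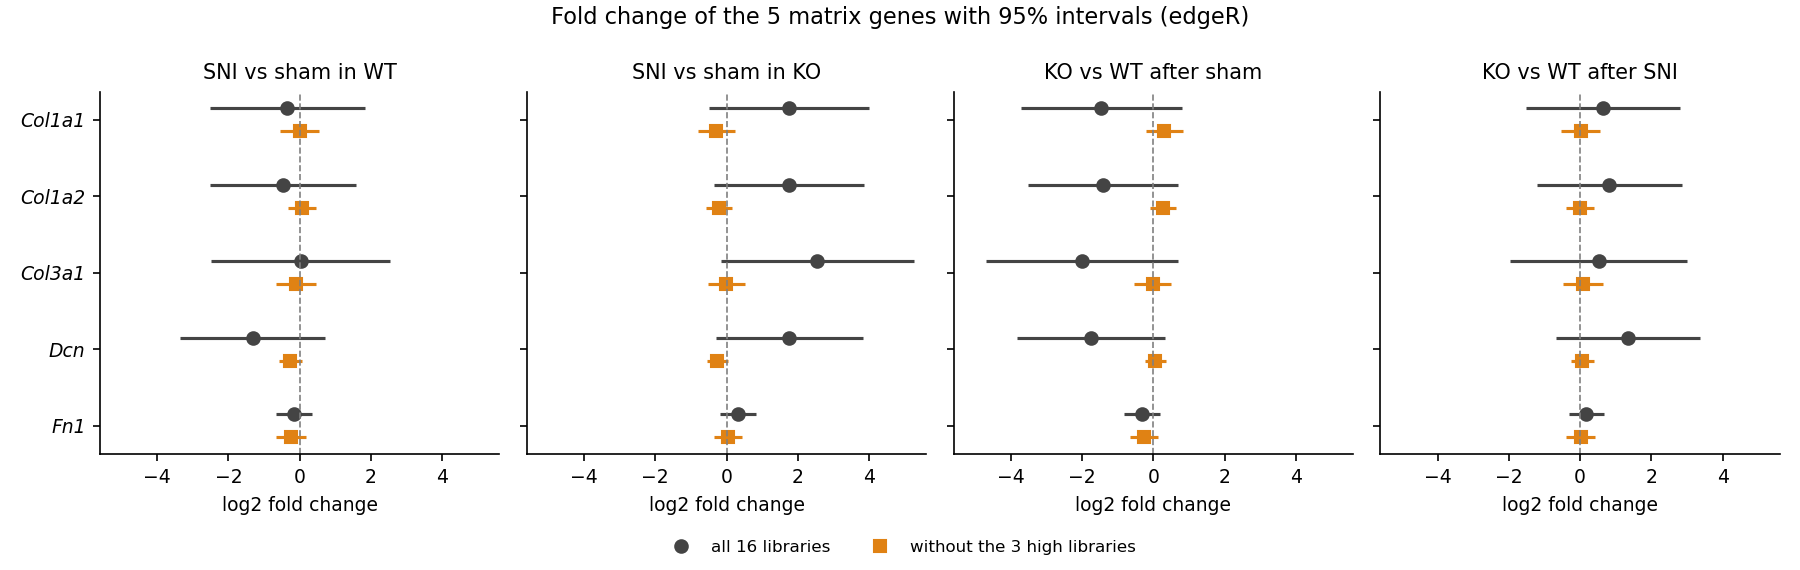
Log2 fold change of each gene in the 4 comparisons, with 95% confidence intervals from edgeR, over all 16 libraries (grey circles) and without the 3 high libraries (orange squares). With all libraries the intervals of the collagens and Dcn span several log2 units, such as -2.49 to 2.54 for Col3a1 in WT, and all of them include 0. Without the 3 libraries the same interval is -0.66 to 0.47, and the intervals of all 5 genes still include 0.

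The interaction asks whether the response to SNI differed between genotypes. It called 0 of the 5 genes. Of all genes edgeR called 0% (468 genes at an unadjusted p under 0.05), limma voom called 0 genes and DESeq2 called 1 gene, which was not Fn1, the only one of the 5 for which it gave a p-value. Dcn had an interaction of 3.09 on the log2 scale (SE 1.36) and was the 1 gene of the 5 with an unadjusted p under 0.05, at 0.038 (edgeR adjusted p = 0.978). It dropped to 1.07 when KO SNI replicate 1 was left out and to 1.28 when WT sham replicate 2 was, and it was 3.83 when WT SNI replicate 3 was left out. Without all 3 it was 0.01 (95% confidence interval -0.43 to 0.44), and 0% of all genes were called (1042 genes at an unadjusted p under 0.05 by edgeR).

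Averaged over genotypes, none of the 5 genes passed the threshold for SNI (0 of the 5 and 809 of all genes at an unadjusted p under 0.05; limma voom called 0 of the 5), where edgeR called 0.912% of all genes over 16 libraries and 0.827% over 13. Over 13 libraries Dcn was lower after SNI in both genotypes, by -0.26 in WT and -0.26 in KO on the log2 scale. The averaged value was -0.26 (95% confidence interval -0.48 to -0.04, edgeR unadjusted p = 0.0235). It did not pass the adjustment over all genes (edgeR adjusted p = 0.547). In this fit 1198 of 15227 genes had an edgeR unadjusted p under 0.05. The 13 libraries were what remained after the 3 picked for these genes were left out. Over 16 libraries the averaged value of Dcn was 0.22 (SE 0.67). The averages of Col1a1, Col1a2, Col3a1 and Fn1 over 13 libraries were -0.14, -0.07, -0.05 and -0.10.

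The 5 genes were then set against each other across libraries. A correlation over all 16 libraries is not given, because the 3 high libraries formed a separate cluster. Over the other 13, Col1a1 and Col1a2 moved together (Pearson r = 0.879, p = 2e-05, adjusted p = 0.0002; Spearman rho = 0.918, p = 7e-05, adjusted p = 0.0007; permutation tests, 10 pairs adjusted by Benjamini-Hochberg). Without the 2 libraries farthest from the median of Col1a1, r was 0.81. This pair kept its call without any 1 of the 13 libraries, with r from 0.849 to 0.905.

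The other pairs among the collagens and Dcn were weaker. Col1a1 and Col3a1 had r = 0.811 (permutation p = 0.00162, adjusted p = 0.0081) and rho = 0.725 (permutation p = 0.00687, adjusted p = 0.0343), and r = 0.58 without the 2 farthest libraries. Dcn had r = 0.691 with Col1a1, 0.65 with Col1a2 and 0.673 with Col3a1, each with a permutation adjusted p of 0.0286. Without the 2 libraries farthest from the median of the collagen gene, these r values were 0.33, 0.405 and 0.484. The rank values of Dcn, rho = 0.5, 0.593 and 0.401, did not pass (permutation adjusted p = 0.17, 0.106 and 0.25; unadjusted 0.0848, 0.0354 and 0.175). Col1a2 and Col3a1 had r = 0.644 (permutation adjusted p = 0.0286) and rho = 0.577 (permutation adjusted p = 0.106). The r of this pair was 0.381 without the 2 libraries farthest from the median of Col1a2. Apart from the pair of type I chains, the 5 pairs called by r lost their call without KO sham replicate 1, with r then from 0.416 to 0.589, so these relations rested on that library. Some also lost it without WT sham replicate 1 (r from 0.619 to 0.666 for 4 pairs), KO SNI replicate 3 (0.620 to 0.649 for 3 pairs) or WT SNI replicate 2 (0.614 for Col1a2 and Dcn). Col3a1 and Fn1 passed without WT sham replicate 4 (0.639) or KO SNI replicate 2 (0.707). KO sham replicate 1 was the highest of the 13 in Col1a1, Col1a2, Col3a1 and Dcn.

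By Pearson r, the 4 pairs with Fn1 were the lowest of the 10. Its r was 0.363 with Col1a1, 0.189 with Col1a2, 0.574 with Col3a1 and 0.364 with Dcn, and none passed (permutation adjusted p = 0.249, 0.541, 0.0615 and 0.249). Its rho was 0.313, 0.0989, 0.418 and 0.181 (permutation adjusted p = 0.373, 0.75, 0.25 and 0.615). The highest of the 13 libraries in Fn1 was WT sham replicate 1 and not KO sham replicate 1. All of these relations are across libraries of 4 groups.

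**Figure D4:**
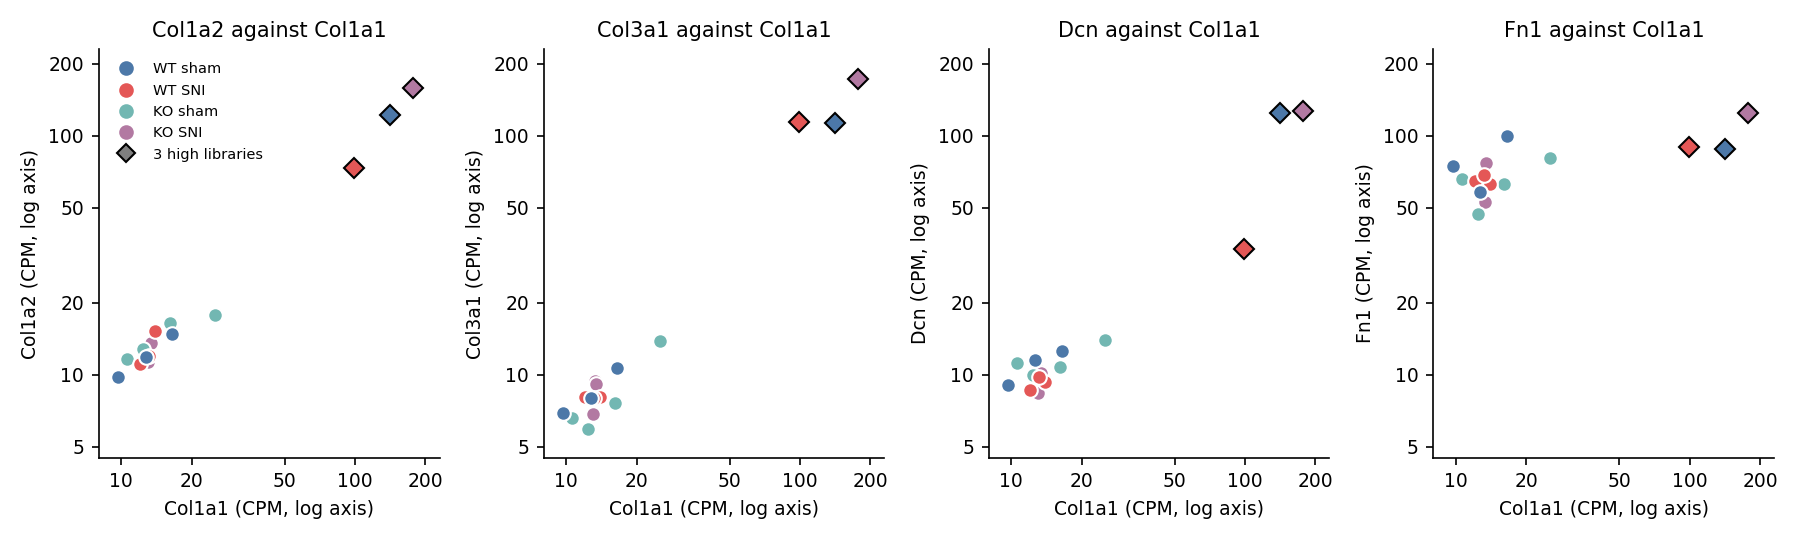
Col1a2, Col3a1, Dcn and Fn1 against Col1a1 in the 16 libraries, in TMM-scaled CPM on log axes. Colours are groups and diamonds are the 3 high libraries. Col1a2 follows Col1a1 from 9.69 to 177 CPM of Col1a1, Dcn of WT SNI replicate 3 falls below the line of the other high libraries at 33.6 CPM, and Fn1 stays between 47.2 and 124 CPM.

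The spread within groups was large for 4 of the 5 genes. The biological coefficient of variation of edgeR was 92.7% for Col1a1, 87.4% for Col1a2, 106% for Col3a1 and 85.3% for Dcn, against a median of 13.2% over all genes. These ranked 77, 91, 50 and 101 from the top of 15237 genes, and Fn1, with 23.1%, ranked 3030. Without the 3 high libraries the values were 21.6%, 15.4%, 21.9%, 12.2% and, for Fn1, 16.6%, against a median of 10.5%. These libraries had been singled out for these genes, so the ranks and the fall restate that choice and are a description.

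The mean log2 CPM of the 5 genes in a library was used as a matrix score, to ask how many other genes went with them. In a fit with a mean per group and the score, edgeR called 1023 of 15232 other genes (6.72%), of which 854 were higher and 169 lower in libraries with a higher score. The median slope was 0.27 among the 854 and -0.13 among the 169, in log2 units of a gene per log2 unit of the score. The number was 507 without WT sham replicate 2, 632 without KO SNI replicate 1 and 2323 without WT SNI replicate 3. Without all 3, edgeR called 0 (1043 genes at an unadjusted p under 0.05), so the calls rested on these libraries. The score was 2.34 in WT sham replicate 2, 1.72 in WT SNI replicate 3 and 2.71 in KO SNI replicate 1. The next highest was 0.0338, in KO sham replicate 1. The fit thus largely set these 3 libraries, picked for the 5 genes, against the rest of their groups. Genes that differed in them for any other reason would be called too. The count is therefore a description and no test of a link to the 5 genes.

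The genes closest to the score are given by identifier, since the files pair none but the 5 with a name. Over 16 libraries the highest Pearson r with the score among 10421 genes was 0.982, for ENSRNOG00000001249, and the second was 0.979, for ENSRNOG00000001254. Over the 13 libraries without the 3 high ones they were 0.891 and 0.874. ENSRNOG00000001249 had 52.6, 59.3 and 58.5 CPM in WT sham replicate 2, WT SNI replicate 3 and KO SNI replicate 1 and 11.0 to 16.8 CPM in the 13. ENSRNOG00000001254 had 52.4, 57.5 and 63.9 CPM against 15.2 to 24.2 CPM. Both were at a like level in the 3 high libraries, unlike Dcn. Over the 13 the remaining 8 of the top 10 had r from 0.264 to 0.729. At the other end, ENSRNOG00000053405 had r = -0.844 over 16 libraries and -0.764 over 13, with 34.8 to 41.6 CPM in the 3 high libraries and 40.1 to 48.6 CPM in the 13. These r values describe a ranking and carry no p. Over 16 libraries they largely set the 3 high libraries, a separate cluster picked for the 5 genes, against the 13. The r over 13 is for genes ranked over 16 libraries that include those 13, so it is not independent of the ranking.

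The score was also entered beside the groups in the tests of SNI. The counts below are over all 15237 genes and may include the 5 genes, from which the score itself is built. In WT rats the number of genes called went from 12 to 27, and all 12 were among the 27. In KO rats it was 16 with and without the score, and 14 were shared. The averaged effect went from 139 to 173 genes, which included all 139. Of those 139, 2 were also among the 1023 genes called for the score. Markers of other cell types and the other genes of the fibroblast, collagen and receptor lists were not analysed here, so which cells the matrix genes came from in each library was not tested.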

How the data were processed

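Messenger RNA of 16 dorsal horn libraries was sequenced. Per the labels' protocols, a Monarch kit was used for RNA and the TruSeq stranded mRNA kit for libraries. The tools named in the submitters' processing notes, with no role or order, are RSEM 1.3.1, STAR 2.7.9a and fastp 0.22.0, and the build is mRatBN7.2. The annotation release is not given in the sources used here, nor is the strand setting. The deposited table holds expected counts, which the authors estimated per gene and which need not be whole (96.4% of values were whole within 1e-09). Expected counts divide reads shared by similar genes by estimate, so such values are less certain.

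Expected counts were rounded. The filterByExpr rule (minimum count 10) kept 15237 genes with 99.97% of counts. Library totals were 15790243 to 28090152. The quasi-likelihood model of edgeR 4.0.16 (R 4.3.3) had 1 mean for each group over all 16 libraries, TMM scaling, Benjamini-Hochberg adjustment over all genes and a threshold of 0.05. Standard errors were taken from the log2 fold change and its F statistic. Log2 CPM used a prior count of 2. Alternatives were DESeq2 1.42.0, limma voom 3.58.1, other scaling and filters, a replicate block, only the 8 libraries compared, leaving out libraries and the matrix score as a covariate. The models were tested on simulated data. No pair of libraries among 120 was close enough to be 1 library deposited again (lowest chi-square per degree of freedom 7.85).

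The members, lists and alternatives were chosen with earlier results of these data known. The genes named were the 5 members and those with the highest and lowest correlation with the matrix score. The reference table lists 47357 genes of GRCr8, of which 0 carry an Ensembl identifier, so 0 of the identifiers were matched. Lists of genes by symbol, for cell types and for the matrix pathway, were therefore not analysed here.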

Additional observations from a re-analysis of the deposited data

Results flagged for a closer look

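The level of each of the 5 genes in each of the 4 groups made 20 sets of 4 libraries. In 12 of the 20 sets the highest library lay far from the other 3 by Dixon's test at the 95% level, where chance gives about 1 set in 20. The 3 high libraries had been singled out for these genes beforehand, so this count restates that choice and is no evidence for it. All 12 were the 3 high libraries, in the collagens and Dcn. In WT sham replicate 2, Col1a1 was at 141 CPM, Col1a2 at 122, Col3a1 at 113 and Dcn at 124. In WT SNI replicate 3, Col1a1 was at 98.9 CPM, Col1a2 at 73.4, Col3a1 at 114 and Dcn at 33.6. In KO SNI replicate 1, Col1a1 was at 177 CPM, Col1a2 at 159, Col3a1 at 173 and Dcn at 127. No set of Fn1 and no KO sham set was among the 12. The sets are not independent, since they share libraries.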

How the results depend on the processing

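The fit with the matrix score as a covariate was not read for the 5 genes, because the score is built from them. Under the other alternatives that gave a p-value, none of the 5 genes was called in any comparison. The smallest adjusted p among these was 0.34. DESeq2 gave no p-value for the collagens and Dcn. Among 656 alternative values of the fold changes of the 5 genes, 45 had the opposite sign. Many of the 656 left out a library outside the groups compared, which hardly moved the value. Why single libraries differed in level was not tested.

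Without the 3 high libraries the log2 fold changes that turned were, for SNI in WT, 0.0011 for Col1a1, 0.0616 for Col1a2 and -0.0954 for Col3a1. For SNI in KO they were -0.29 for Col1a1, -0.20 for Col1a2, -0.006 for Col3a1 and -0.26 for Dcn. For KO against WT after sham they were 0.31 for Col1a1, 0.265 for Col1a2 and 0.0566 for Dcn. The interaction turned to -0.29 for Col1a1 and -0.26 for Col1a2. The averaged SNI effect turned to -0.14 for Col1a1, -0.07 for Col1a2, -0.0507 for Col3a1, -0.105 for Fn1 and -0.26 for Dcn. With limma voom, SNI in WT turned to 0.12 for Col1a1 and 0.0861 for Col1a2.

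Leaving out 1 library turned the following, with the range over libraries left out. SNI in WT ran from -1.76 to 1.42 for Col1a1, -1.62 to 1.21 for Col1a2, -2.08 to 2.02 for Col3a1 and -2.06 to 0.49 for Dcn. SNI in KO ran from -0.29 to 2.08 for Col1a1, -0.20 to 2.08 for Col1a2, -0.0053 to 2.91 for Col3a1 and -0.25 to 2.10 for Dcn. KO against WT after sham ran from -1.79 to 0.30 for Col1a1, -1.74 to 0.26 for Col1a2 and -2.08 to 0.0553 for Dcn. KO against WT after SNI ran from -1.40 to 2.06 for Col1a1, -1.14 to 1.96 for Col1a2, -2.03 to 2.63 for Col3a1, -0.68 to 2.08 for Dcn and -0.12 to 0.33 for Fn1. The interaction of Col3a1 ran from -0.0298 to 4.63. The averaged effect ran from -0.32 to 1.59 for Col1a1, -0.34 to 1.48 for Col1a2, -0.79 to 1.13 for Dcn and -0.0633 to 0.158 for Fn1.

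The counts of genes called moved by over 1.5 times as follows. SNI in WT (12 genes) gave 65 with DESeq2, 0 with limma voom, 22 by library totals, 46 with the replicate block, 0 over the 8 libraries compared, 24 without the 3 high libraries and 27 with the matrix score; leaving out 1 library gave 0 to 20. SNI in KO (16) gave 98, 7, 70, 4 and 4 with DESeq2, limma voom, the replicate block, the 8 libraries and without the 3; leaving out 1 gave 3 to 33. KO against WT after sham (2) gave 4 with DESeq2 and 1 with the replicate block, over the 8 libraries, without the 3 and with the matrix score; leaving out 1 gave 1 to 2. The interaction (0) gave 1 with DESeq2. The averaged effect (139) gave 223 with DESeq2 and 79 to 177 leaving out 1. The matrix score (1023) gave 599 with the replicate block, 0 without the 3 and 507 to 2323 leaving out 1.

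The labels do not say what a replicate number marks. Between same-numbered libraries of different groups, deviations from the group means had r from -0.357 to 0.226 (24 pairs, median 0.0442). Of 16 libraries, 1 correlated best with its own number. Whether the numbers mark a batch was not tested. The replicate block ended or added no call of the 5 genes.

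Leaving out 1 of the 13 libraries, r ran from 0.589 to 0.858 for Col1a1 and Col3a1, 0.416 to 0.797 for Col1a1 and Dcn, 0.436 to 0.756 for Col1a2 and Col3a1, 0.474 to 0.751 for Col1a2 and Dcn, 0.425 to 0.764 for Col3a1 and Dcn, and 0.443 to 0.707 for Col3a1 and Fn1. Without its high library, a group mean moved by less than 1 SD of that group, as it must when 1 of 4 values is left out, but by up to several-fold: Col1a1 in WT sham went from 44.9 to 13 CPM. Levels without the 3 high libraries, levels without 1 library and correlations without 1 library were added after the data were seen.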
